A study of Mus musculus with 12 samples.

Results

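The core pluripotency factors and Dppa genes were followed in 3 polyclonal lines of mouse embryonic stem (ES) cells and in the parental IB10 cells. The 9 genes were named by symbol: Pou5f1, Sox2, Sall4, Utf1, Fgf4, Lin28a (spelled Lin28 on the array), Dppa2, Dppa3 and Dppa4. A probe carried the symbol of 8 of them, among 18322 genes with a symbol on the array. No probe carried the symbol Dppa2 or a synonym of it in the annotation used here, so Dppa2 was not analysed here. Each gene is given by its brightest probe. The 3 lines were made from IB10 (E14) ES cells by lentiviral infection with pLKO-puro, puromycin selection and pooling of the colonies that survived, and each carried a control hairpin, shKdm5c#1 or shKdm5c#2. Kdm5c, the target of both knockdown hairpins, encodes an X-linked enzyme that removes methyl groups from lysine 4 of histone H3. The control line is thus infected and selected as well, with a non-targeting hairpin, while the reference RNA came from untreated IB10 cells. The medium held serum and LIF, on gelatin-coated dishes. Each line is 1 pool of colonies with 4 samples lettered A to D, called cultures here although the labels do not say that they were grown apart. Each of the 12 arrays set 1 culture against IB10 RNA that carries the same letter throughout, taken here as 1 reference preparation, with the sample in Cy3 for cultures A and C and in Cy5 for B and D.

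In ES cells Pou5f1 (Oct4) and Sox2 bind DNA together at many enhancers, and the network around them holds the cells in a self-renewing state. Sall4, Utf1, Lin28a and Fgf4 belong to this network as a zinc finger factor, a chromatin-associated factor, an RNA-binding protein and a secreted growth factor. The Dppa genes (developmental pluripotency-associated) share a naming history and not a protein family: Dppa2 and Dppa4 encode SAP-domain proteins that act as partners and activate genes of the 2-cell-like state, whereas Dppa3 (Stella) encodes a maternal and germ cell factor that guards against loss and gain of DNA methylation. Dppa4 and Dppa2 are next to each other on their chromosome, with 0 genes between them in the RefSeq table of GRCm38.p6.

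Kdm5c acts on histone marks at promoters, so the sequence before the transcription start is shown for 4 of the 5 members with a window in the set of GRCm38.p6 promoter sequences used here. Pou5f1 and Sox2 are shown as genes that were not called in a knockdown line against control, and Lin28a and Fgf4 as genes that were. Each run is the 250 bases before the start, written 5′ to 3′ on the gene's strand. The windows lie at chr17:35505782-35506031 (plus strand) for Pou5f1, chr3:34649745-34649994 (plus) for Sox2, chr4:134018817-134019066 (minus) for Lin28a and chr7:144861136-144861385 (plus) for Fgf4. Capitals mark exact matches on either strand to CATTGT (the core that SOX proteins bind), ATGCAAA (the core of the POU octamer) or GGGCGG (the GC box).
Pou5f1: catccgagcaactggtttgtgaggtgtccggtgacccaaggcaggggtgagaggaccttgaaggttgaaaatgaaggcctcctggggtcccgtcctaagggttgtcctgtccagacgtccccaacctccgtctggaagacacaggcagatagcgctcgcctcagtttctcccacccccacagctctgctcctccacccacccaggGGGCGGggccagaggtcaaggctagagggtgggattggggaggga
Sox2: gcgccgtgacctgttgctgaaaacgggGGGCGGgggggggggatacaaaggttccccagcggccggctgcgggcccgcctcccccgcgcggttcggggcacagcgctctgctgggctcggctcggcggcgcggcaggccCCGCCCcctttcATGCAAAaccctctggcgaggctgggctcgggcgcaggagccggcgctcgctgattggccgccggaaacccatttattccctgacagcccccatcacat
Lin28a: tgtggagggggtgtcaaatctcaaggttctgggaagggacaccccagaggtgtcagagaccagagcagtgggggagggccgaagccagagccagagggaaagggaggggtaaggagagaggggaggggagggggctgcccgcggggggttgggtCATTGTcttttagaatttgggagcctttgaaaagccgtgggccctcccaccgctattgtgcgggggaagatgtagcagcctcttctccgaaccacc
Fgf4: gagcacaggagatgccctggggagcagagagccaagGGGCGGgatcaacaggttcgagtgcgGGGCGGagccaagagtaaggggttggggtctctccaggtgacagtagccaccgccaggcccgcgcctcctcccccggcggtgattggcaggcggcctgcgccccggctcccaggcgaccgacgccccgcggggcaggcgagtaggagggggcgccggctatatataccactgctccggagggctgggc

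The Lin28a window held 1 SOX core, 96 bases before the start, and no GC box. The Sox2 window held 1 octamer core, 99 bases before the start, and 2 GC boxes. The Pou5f1 window held 1 GC box and the Fgf4 window 2. The Utf1 window, not printed, held 4 GC boxes and neither of the other motifs. Of all 32817 such windows, 10.7 percent held the SOX core, 4.13 percent the octamer core and 32.7 percent the GC box. Matches to different motifs shared no bases, while a pair of the Utf1 GC boxes, 138 and 133 bases before the start, overlapped. The windows held 8 CpG dinucleotides at Pou5f1, 27 at Sox2, 7 at Lin28a, 14 at Utf1 and 21 at Fgf4, against a median of 6 over all windows. A match is a description of these letters only.

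Kdm5c itself read -0.62, -0.42, -0.81 and -0.63 log2 over IB10 in cultures A to D of shKdm5c#1 and -0.69, -0.62, -0.75 and -0.65 in those of shKdm5c#2. The control cultures read -0.01, 0.09, -0.01 and 0.00, so neither knockdown line overlapped the control. The 3 Kdm5c probes differed in size: the brightest gave log2 differences from control of -0.64 and -0.70, the second -0.98 and -0.99, and the dimmest -0.10 and -0.04, which limma did not call. All 10 ES cell markers listed stood above background on all 12 arrays, with Pou5f1, Sox2, Utf1 and Nanog among them. Of these 10, 1 was higher and 2 lower with shKdm5c#1 than in control, and 1 and 4 with shKdm5c#2, and their mean dye-corrected log2 ratio over IB10 was 0.03 to 0.08 in control cultures, 0.02 to 0.07 with shKdm5c#1 and -0.16 to -0.06 with shKdm5c#2. In the sample's channel, 84.4 to 96.4 percent of the spots for genes passed background. The probes of the 8 members were above background in both channels of all 12 arrays, and on 0 arrays near the top of the scale. The residual SD was widest on the array of shKdm5c#2 culture D, at 0.08 log2 against 0.05 to 0.06 on the other arrays. Markers of other cell types moved with the lines: of 11 extraembryonic endoderm markers 0 were higher and 6 lower with shKdm5c#1, and 0 and 7 with shKdm5c#2, while of 9 trophectoderm markers 6 and 4 were higher and 0 lower. The mean dye-corrected log2 ratio of the endoderm list over IB10 was 0.30 to 0.37 in control cultures, -0.02 to 0.03 with shKdm5c#1 and -0.07 to -0.05 with shKdm5c#2, and that of the trophectoderm list -0.47 to -0.43, 0.02 to 0.07 and -0.19 to -0.11. Of 10 fibroblast markers 1 was higher and 5 lower with shKdm5c#1, and 1 and 4 with shKdm5c#2, with means of -0.03 to 0.02, -0.16 to -0.13 and -0.24 to -0.20 in the same order of lines. Of 7 neuroectoderm markers 1 was higher and 1 lower, and 1 and 2, with means of 0.04 to 0.08, -0.03 to 0.05 and 0.03 to 0.07. Of all genes, 9.01 percent were called higher and 9.66 percent lower with shKdm5c#1 than in control, and 9.96 and 12.3 percent with shKdm5c#2. Each marker on these lists passed background on some arrays, and the part of the markers in the values below was not tested. RNA came from whole cultures, so fewer cells that express a gene and less RNA of it per cell cannot be told apart.

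**Figure D1:**
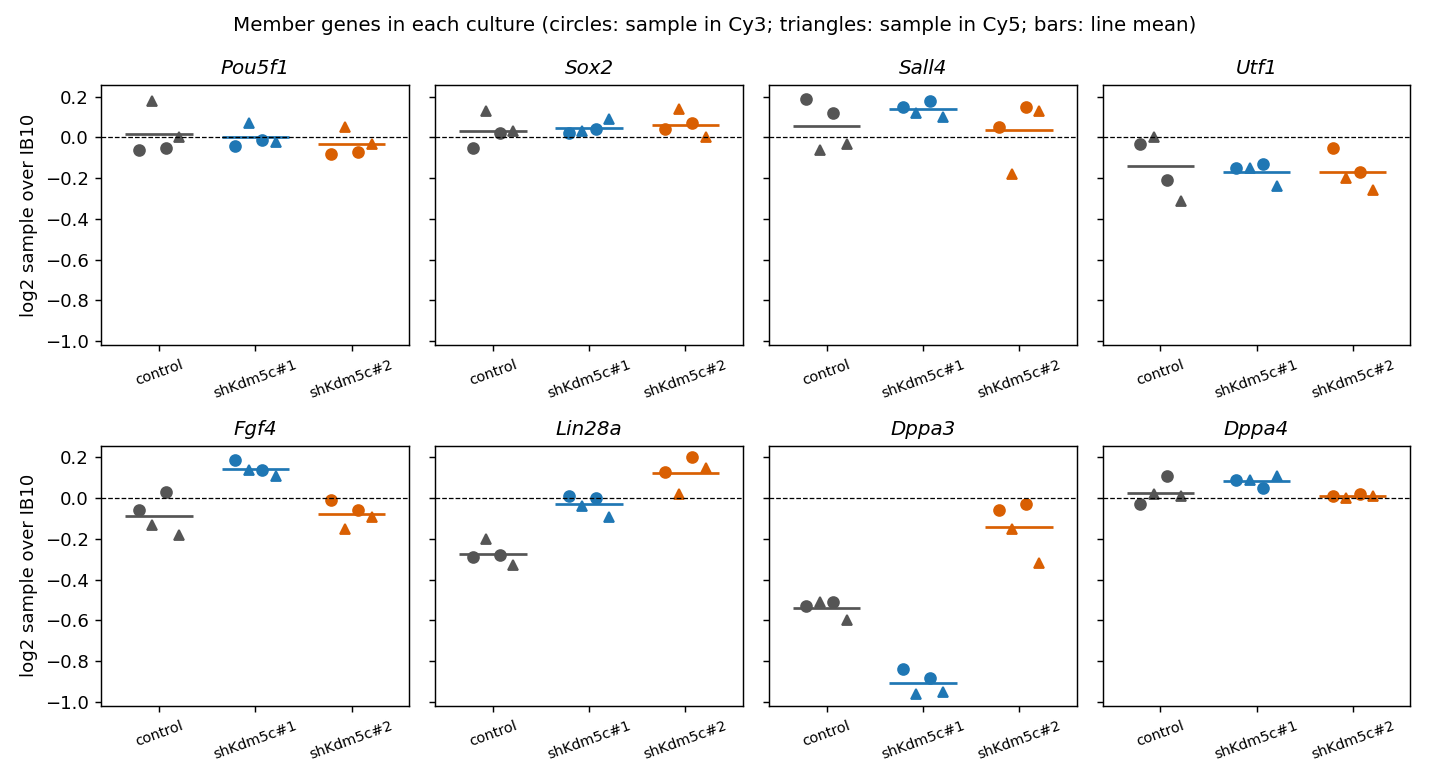
Log2 of the sample over the IB10 reference (vertical axis) for the 8 measured genes in the 4 cultures of each line, with the sample in Cy3 (circles) or Cy5 (triangles) and the line mean as a bar. Dppa3 spans the widest range, from -0.96 to -0.03, Lin28a and Fgf4 separate some of the lines, and the other genes lie within 0.31 of the reference.

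With shKdm5c#1, Lin28a and Fgf4 rose and Dppa3 fell against the control line, and the other 5 measured members were not called. With shKdm5c#2, Lin28a and Dppa3 rose and the other 6 were not called. Lin28a was thus higher in both knockdown lines, Dppa3 was called in opposite directions, and Fgf4 was called with shKdm5c#1 alone, a difference between the knockdown lines that is tested directly below. Calls are limma p-values under 0.05 after Benjamini-Hochberg adjustment over all 18322 genes, in a fit to all 12 arrays with a dye term. The 3 of 8 members called with shKdm5c#1 stand beside 18.7 percent of all genes (9.01 percent higher and 9.66 percent lower), and the 2 of 8 with shKdm5c#2, both higher, beside 22.2 percent (9.96 percent higher and 12.3 percent lower). These are 37.5 and 25.0 percent of the measured members, and with 8 genes no excess over all genes is read from them. The median difference over the 8 members was 0.034 and -0.0037, against -0.0018 and -0.0042 over all genes.

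The Dppa3 ratio over IB10 was -0.53, -0.51, -0.51 and -0.60 in control cultures A to D. It was -0.84, -0.96, -0.88 and -0.95 with shKdm5c#1, below every control culture. With shKdm5c#2 it was -0.06, -0.15, -0.03 and -0.32, above every control culture, with culture D the lowest of the line. Dppa3 RNA therefore stood at 77.1 percent of control with shKdm5c#1 (log2 -0.38, standard error 0.04, 95 percent interval -0.46 to -0.29, adjusted p = 7.61e-06, 4 cultures a line, limma) and at 131 percent with shKdm5c#2 (0.39, standard error 0.04, 0.31 to 0.48, adjusted p = 2.7e-06). All 3 lines were below the IB10 reference, at 69.0 percent in the control, 53.2 percent with shKdm5c#1 and 90.7 percent with shKdm5c#2. The rise with shKdm5c#2 against control is thus a value closer to IB10, and the fall with shKdm5c#1 one further from it. From high to low the order was IB10, shKdm5c#2, control, shKdm5c#1, and each step was called by limma (shKdm5c#2 against IB10 by -0.14, adjusted p = 0.00156). That smallest step was -0.24 in the Cy5 cultures and -0.05 in the Cy3 cultures (adjusted p = 0.0136 and 0.335), and it was -0.12 with median centring (adjusted p = 0.62). Within each dye the differences from control were -0.40 and -0.35 with shKdm5c#1 and 0.32 and 0.47 with shKdm5c#2, Cy5 before Cy3.

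Lin28a encodes the RNA-binding protein that blocks maturation of let-7 microRNAs. It read -0.29, -0.20, -0.28 and -0.33 over IB10 in control cultures A to D. With shKdm5c#1 it read 0.01, -0.04, 0.00 and -0.09, and with shKdm5c#2 0.13, 0.02, 0.20 and 0.15. No knockdown culture overlapped the control cultures, and no shKdm5c#2 culture overlapped those of shKdm5c#1. Lin28a stood at 118 percent of control with shKdm5c#1 (log2 0.24, standard error 0.04, 95 percent interval 0.15 to 0.33, adjusted p = 0.000424) and at 132 percent with shKdm5c#2 (0.40, standard error 0.04, 0.31 to 0.48, adjusted p = 1.7e-06). Lin28a in the control line stood below IB10, at 82.7 percent (log2 -0.27, adjusted p = 1.89e-06), whereas shKdm5c#1 was not called against IB10 (-0.03, 95 percent interval -0.09 to 0.03, adjusted p = 0.443) and shKdm5c#2 was slightly higher (0.12, adjusted p = 0.00355). The order from high to low was shKdm5c#2, IB10, shKdm5c#1, control, and the step from IB10 to shKdm5c#1 did not pass the test. The difference of shKdm5c#1 from control was 0.20 in the Cy5 cultures and 0.28 in the Cy3 cultures (adjusted p = 0.174 and 0.00214), and that of shKdm5c#2 0.35 and 0.45 (0.0192 and 3.7e-05). The rise of shKdm5c#2 over IB10 was 0.08 in Cy5 cultures alone (adjusted p = 0.315).

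Fgf4 encodes the growth factor that ES cells secrete and that acts on them through FGF receptors and ERK, a signal known to ready them for differentiation. Its ratio over IB10 was -0.06, -0.13, 0.03 and -0.18 in control cultures A to D. It was 0.19, 0.14, 0.14 and 0.11 with shKdm5c#1, above every culture of the other lines. With shKdm5c#2 it was -0.01, -0.15, -0.06 and -0.09, within the range of the control cultures. Fgf4 stood at 118 percent of control with shKdm5c#1 (log2 0.23, standard error 0.04, 95 percent interval 0.16 to 0.31, adjusted p = 0.000174). With shKdm5c#2 the difference was 0.01 (95 percent interval -0.07 to 0.09, adjusted p = 0.897). Against IB10, Fgf4 was at 111 percent with shKdm5c#1 (adjusted p = 0.000322), and at 94.1 and 94.7 percent in the control and shKdm5c#2 lines (adjusted p = 0.0159 and 0.03). These shortfalls of the control and shKdm5c#2 lines were -0.16 and -0.12 in the Cy5 cultures, where only the first was called (adjusted p = 0.0255 and 0.0682), and -0.02 and -0.03 in the Cy3 cultures, where neither was (adjusted p = 0.786 and 0.542). With no dye term neither was called (adjusted p = 0.0991 and 0.147). The control call also ended without control A, B or D (-0.07 to -0.09, adjusted p = 0.0504 to 0.123), that of shKdm5c#2 without its culture A, B or C (-0.07 to -0.09, adjusted p = 0.0539 to 0.137), and that of shKdm5c#1 in Cy5 cultures alone (0.13, adjusted p = 0.0561). The order was shKdm5c#1, IB10, then shKdm5c#2 and control, which did not differ beyond their spread. The Fgf4 probe was the dimmest of the 8, with sample signals of 173.5 to 367.5.

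Pou5f1, the POU factor without which ES cells lose their identity, read between -0.08 and 0.18 over IB10 in all 12 cultures. Control cultures A to D gave -0.06, 0.18, -0.05 and 0.00, and those of shKdm5c#1 -0.04, 0.07, -0.01 and -0.02. Those of shKdm5c#2 gave -0.08, 0.05, -0.07 and -0.03, and culture B, with the sample in Cy5, was the highest in each line as measured. After dye correction, B read 0.02 and C 0.04 with shKdm5c#1. In the authors' values C stood above B in both knockdown lines. The difference from control was -0.02 with shKdm5c#1 (95 percent interval -0.10 to 0.07, adjusted p = 0.853) and -0.05 with shKdm5c#2 (-0.14 to 0.04, adjusted p = 0.456). Neither line was called against IB10 (0.00 and -0.03), nor was the control (0.02).

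Sox2, the HMG-box partner of Pou5f1, read -0.05, 0.13, 0.02 and 0.03 in control cultures. It read 0.02, 0.03, 0.04 and 0.09 with shKdm5c#1 and 0.04, 0.14, 0.07 and 0.00 with shKdm5c#2, so the 3 lines overlapped. The differences from control were 0.01 (95 percent interval -0.07 to 0.09, adjusted p = 0.914) and 0.03 (-0.05 to 0.11, adjusted p = 0.693). The intervals of Pou5f1 and Sox2 thus reach 0.14 and 0.11 log2 in size. Against IB10, Sox2 gave 0.06 with shKdm5c#2 (adjusted p = 0.114), a value that limma called without culture D (0.09, adjusted p = 0.0167) and with array weights (0.08, adjusted p = 0.0418). Nanog, the homeobox factor of the same network and not one of the 9 genes, was lower in both knockdown lines than in control (log2 -0.22 and -0.38, adjusted p = 0.0247 and 0.000331). Its call with shKdm5c#1 ended in either dye alone, with no dye term, with median centring, without control B or C, and without shKdm5c#1 B, C or D, at -0.17 to -0.22 (adjusted p = 0.0575 to 0.839). Its call with shKdm5c#2 ended with median centring (-0.35, adjusted p = 0.209) and in Cy5 cultures alone (-0.36, adjusted p = 0.0567).

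Sall4, a zinc finger factor that binds Pou5f1 and recruits the NuRD deacetylase complex, read 0.19, -0.06, 0.12 and -0.03 in control cultures, higher where the sample was in Cy3. It read 0.15, 0.12, 0.18 and 0.10 with shKdm5c#1, the tightest of the lines, and 0.05, -0.18, 0.15 and 0.13 with shKdm5c#2, where culture B was lowest. Neither difference from control was called (0.08 and -0.02, 95 percent intervals -0.03 to 0.20 and -0.13 to 0.09, adjusted p = 0.358 and 0.852). Against IB10, limma called Sall4 higher with shKdm5c#1 (0.14, adjusted p = 0.0121). The call ended with no dye term, in Cy5 cultures alone, with median centring and without culture B or D of shKdm5c#1 (0.11 to 0.19, adjusted p = 0.0658 to 0.49). Its 3 probes did not give the same value here: the brightest gave 0.14, the second -0.04 and the dimmest 0.13 (adjusted p over all probes 0.0118, 0.331 and 0.0182). No Sall4 probe was called in either knockdown line against control. In Cy3 cultures alone, limma called Sall4 higher than IB10 in the control line as well (0.16, adjusted p = 0.00844), beside 0.17 with shKdm5c#1 (adjusted p = 0.00477). In Cy5 cultures alone the control line gave -0.04 (adjusted p = 0.714).

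Utf1, a chromatin-associated factor that ES cells lose on differentiation, was lower than IB10 in all 3 lines. Control cultures A to D read -0.03, 0.00, -0.21 and -0.31, the widest spread of any member in that line (SD 0.15). Those of shKdm5c#1 read -0.15, -0.15, -0.13 and -0.24, and those of shKdm5c#2 -0.05, -0.20, -0.17 and -0.26. The means were 90.9, 88.9 and 88.7 percent of IB10 (log2 -0.14, -0.17 and -0.17, adjusted p = 0.0192, 0.00494 and 0.00437). The knockdown lines did not differ from control beyond the spread (-0.03 each, 95 percent interval -0.16 to 0.09 for each, adjusted p = 0.788 and 0.763). The call of the control line against IB10 ended without control C (-0.10, adjusted p = 0.161) or D (-0.09, adjusted p = 0.2), in either dye alone and with no dye term. In Cy5 cultures alone the knockdown lines gave -0.20 and -0.23 and were not called (adjusted p = 0.0868 and 0.0574), nor was shKdm5c#2 in Cy3 cultures alone (-0.11, adjusted p = 0.0775).

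Dppa4, the SAP-domain partner of Dppa2, varied little. It read -0.03, 0.02, 0.11 and 0.01 in control cultures, 0.09, 0.09, 0.05 and 0.11 with shKdm5c#1, and 0.01, 0.00, 0.02 and 0.01 with shKdm5c#2, a line SD of 0.01. Neither difference from control was called (0.06 and -0.02, 95 percent intervals -0.01 to 0.13 and -0.09 to 0.06, adjusted p = 0.288 and 0.802). Dppa4 was higher than IB10 with shKdm5c#1 (0.09, adjusted p = 0.0125), and this call ended without culture A, B or D of that line (0.08 to 0.09, adjusted p = 0.0509 to 0.075) and in either dye alone. All shKdm5c#1 cultures lay above those of shKdm5c#2, yet the difference did not pass the test (0.08, adjusted p = 0.154). Dppa3 and Dppa4, alike in name, thus differed in their values, with Dppa3 lines 0.77 apart at most and Dppa4 lines 0.08.

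**Figure D2:**
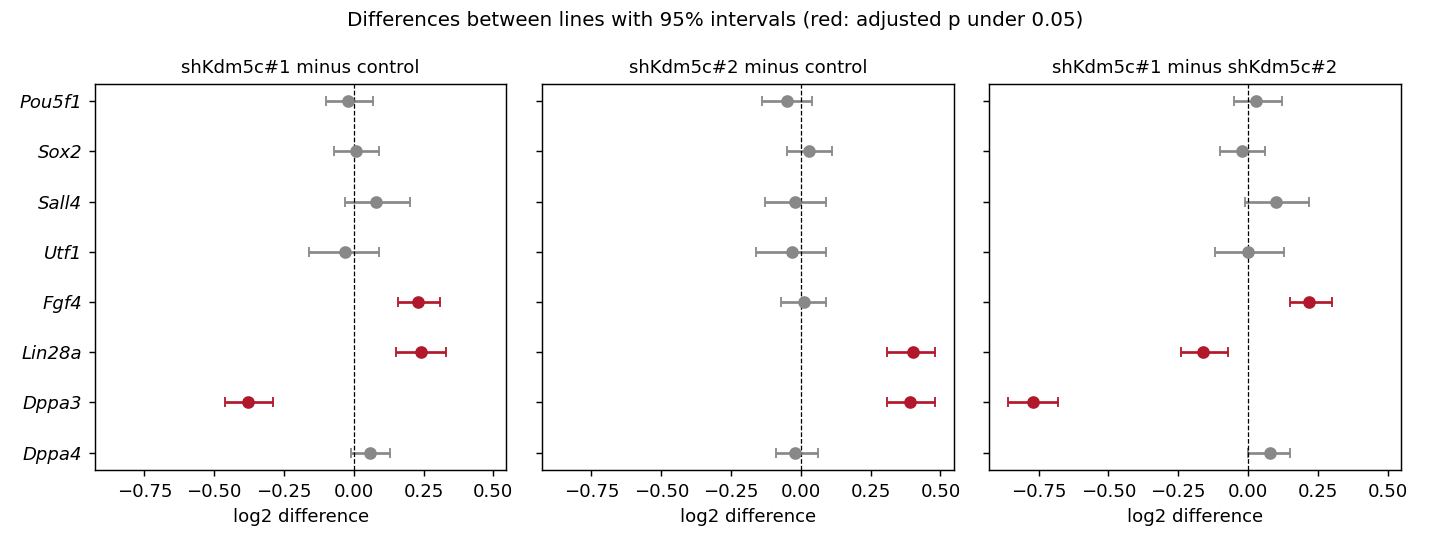
Log2 differences between lines (horizontal axis) for the 8 measured genes with 95 percent intervals from the limma fit to 12 arrays, red where the adjusted p was under 0.05. Dppa3 lies at -0.38 and 0.39 in the comparisons with control, Lin28a at 0.24 and 0.40, Fgf4 at 0.23 and 0.01, and the other genes within 0.08 of 0.

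The difference between the knockdown lines, 1 pool of colonies for each hairpin, was tested directly, shKdm5c#1 against shKdm5c#2. Of the 8 members 3 were called, 1 higher and 2 lower with shKdm5c#1, beside 18.6 percent of all genes (10.1 percent higher and 8.51 percent lower). Dppa3 was lower with shKdm5c#1 than with shKdm5c#2 by -0.77 log2, or 58.7 percent of its level (standard error 0.04, 95 percent interval -0.86 to -0.68, adjusted p = 2.06e-09). The difference was -0.72 in the Cy5 cultures and -0.82 in the Cy3 cultures, and its call held in every one of the 23 other settings tried. Lin28a was lower by -0.16 (adjusted p = 0.0109) and Fgf4 higher by 0.22 (adjusted p = 0.000236). The Lin28a difference was not called in Cy5 cultures alone (-0.15, adjusted p = 0.333). Sall4 differed by 0.10 (adjusted p = 0.233), which limma called without culture D of shKdm5c#2 (0.16, adjusted p = 0.0143) and with array weights (0.14, adjusted p = 0.0494). Among the 8 measured members, the 2 lines were furthest apart in Dppa3. Kdm5c itself differed by 0.06 (95 percent interval -0.05 to 0.16, adjusted p = 0.546). The part of the Kdm5c level in the differences between these lines was not tested.

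The spread of the 3 line means placed Dppa3 (0.77 log2) at the 99.3 percentile of all genes, Lin28a (0.40) at the 95.9 and Fgf4 (0.23) at the 87.0. Pou5f1, Utf1 and Sox2 (0.05, 0.03 and 0.03) stood at the 28.2, 15.7 and 11.4 percentiles, and Sall4 and Dppa4 (0.10 and 0.08) at the 58.6 and 45.7. The measured members thus covered the range from among the most variable genes across lines to among the least.

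Against IB10, 4 of 8 members were called in the control line, all lower, beside 26.3 percent of all genes (12.6 percent higher and 13.7 percent lower). They were Dppa3, Lin28a, Utf1 and Fgf4. With shKdm5c#1, 5 of 8 were called beside 27.1 percent of all genes (12.5 percent higher and 14.5 percent lower), with Fgf4, Sall4 and Dppa4 higher and Dppa3 and Utf1 lower. With shKdm5c#2, 4 of 8 were called beside 26.3 percent (11.4 percent higher and 14.9 percent lower), with Lin28a higher and Dppa3, Utf1 and Fgf4 lower. These values rest on 1 reference preparation, whose own spread is not in the test, and the 3 comparisons share it. Most of these differences were small: apart from Dppa3 and from Lin28a in the control line, the called ones were 0.08 to 0.17 log2 in size.

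By likeness over the 12 dye-corrected ratios, among 9160 genes of the brighter part of the array, the genes closest to Dppa3 were Pttg1 (r = 0.986), Btaf1 (0.983) and Spop (0.978). Pttg1, which encodes securin, read 0.16 over IB10 in control, -0.56 with shKdm5c#1 and 0.74 with shKdm5c#2. It had the same order of lines as Dppa3 at a higher level relative to IB10. Closest to Lin28a were Igfbp3 (0.982), Cxx1b (0.982) and Kcnk1 (0.969), with Igfbp3, an IGF-binding protein, at -0.80, -0.07 and 0.26. Closest to Fgf4 were Cth (0.960), Oas1a (0.958) and Pdha1 (0.958), with Cth, an enzyme of cysteine synthesis, at -0.46, 0.62 and -0.38. These are descriptions over 12 ratios that fall into 3 lines and share the reference, so they mainly record the order of the lines.

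Genes that work with the members were counted on lists written from general knowledge. For these counts, the shares of all genes called against control were 18.7 percent with shKdm5c#1 and 22.2 percent with shKdm5c#2. Against IB10 the shares were 26.3 percent in the control line, 27.1 percent with shKdm5c#1 and 26.3 percent with shKdm5c#2. Of 13 naive pluripotency factors with a probe, 4 were higher and 3 lower with shKdm5c#1 (median -0.044), and 2 higher and 9 lower with shKdm5c#2 (median -0.29). Against control, Gbx2 was lower by 0.58 and 0.96, Klf4 by 0.37 and 0.72, and Tbx3 with shKdm5c#2 by 0.89. Tfcp2l1 was higher in both lines, by 0.36 and 0.26, and Tbx3 was 0.19 higher with shKdm5c#1. Against IB10 the naive list was 7 higher and 1 lower in the control line (median 0.22). It was 10 and 0 with shKdm5c#1 (median 0.18), and 1 and 8 with shKdm5c#2 (median -0.19). Over IB10, Gbx2 read 0.99 in control, 0.40 with shKdm5c#1 and 0.03 with shKdm5c#2, and Klf4 0.49, 0.12 and -0.23. Of 11 primed epiblast markers 7 were higher and 1 lower with shKdm5c#1 (median 0.23), and 9 and 0 with shKdm5c#2 (median 0.90), led by Fgf5 at 0.87 and 1.93. Against IB10 the same list was 0 higher and 9 lower in the control line (median -0.71), 1 and 9 with shKdm5c#1 (median -0.29, Fgf5 -0.27), and 6 and 1 with shKdm5c#2 (median 0.28, Fgf5 0.80). The direction with shKdm5c#1 thus turned with the reference. Pou5f1 and Sox2, which both states are known to express, were not called in the same lines. Of 23 other pluripotency-associated genes 6 were higher and 3 lower with shKdm5c#1 (median 0.041), and 6 and 6 with shKdm5c#2 (median 0.069), with the Nodal inhibitor Lefty1 at -0.78 and -0.52 and its relative Lefty2 at 0.28 and 0.32, all called. Over IB10, Lefty1 read 0.02 in control, -0.76 with shKdm5c#1 and -0.51 with shKdm5c#2, and Lefty2 -0.58, -0.30 and -0.27.

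Among the paralogs of Pou5f1 and Sox2, 2 of 19 were higher and 2 lower with shKdm5c#1 (median -0.01), and 2 and 3 with shKdm5c#2 (median -0.0052). These are 21.1 and 26.3 percent of the paralogs, near the 18.7 and 22.2 percent of all genes, so no response of the family is read from them. Pou3f1, a primed-state POU factor, was 0.23 and 0.57 higher than control, and the endoderm factor Sox7 was 0.42 and 0.67 lower, beside the endoderm markers above. Over IB10, Pou3f1 read -0.71 in control, -0.49 with shKdm5c#1 and -0.14 with shKdm5c#2, and Sox7 0.51, 0.09 and -0.16. Of 13 paralogs and NuRD partners of Sall4, 3 were higher and 1 lower, then 4 and 2 (medians 0.0015 and 0.057), with the paralog Sall3 at -0.32 and -0.52 and Sall2 at -0.03, which was not called, and 0.35. Sall3 read 0.57 over IB10 in control, 0.25 with shKdm5c#1 and 0.04 with shKdm5c#2.

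On the Lin28a side, 3 of 13 genes of the let-7 axis were higher and 1 lower with shKdm5c#1, and 6 and 3 with shKdm5c#2 (medians 0.048 and 0.07). Against control, Lin28a was higher in both lines, while Hmga2, a let-7 target, was lower by 0.32 and 0.81 and Igf2bp3, another target, higher by 0.26 and 0.47. Over IB10, Hmga2 read 0.25 in control, -0.07 with shKdm5c#1 and -0.56 with shKdm5c#2, and Igf2bp3 -0.25, 0.02 and 0.23. Around Fgf4, 4 of 20 FGF ligands, receptors and ERK feedback genes were higher and 2 lower, then 6 and 5 (medians -0.016 and -0.024). Fgf5 was the furthest from control among them, with the feedback phosphatase Dusp4 0.54 and 0.43 higher and Spry4 at -0.26, which was not called, and -0.44. Dusp4 read -0.01 over IB10 in control, 0.54 with shKdm5c#1 and 0.42 with shKdm5c#2. Spry4 read 0.63, 0.37 and 0.19 in the same order, above IB10 in all 3 lines.

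Beside Dppa4, 8 genes of the 2-cell-like state were measured, of 17 named. Of these 1 was higher and 3 lower with shKdm5c#1, and 0 and 4 with shKdm5c#2 (medians -0.017 and -0.097). Zscan4c was lower than control by 0.17 and 0.61 and Zscan4f by 0.15 and 0.42, in lines where Dppa4 was not called. Zscan4c read 0.14 over IB10 in control, -0.04 with shKdm5c#1 and -0.48 with shKdm5c#2. Zscan4f read 0.04, -0.11 and -0.37 in the same order. The Zscan4 genes are near-identical copies, so their probes may read several of them. Beside Dppa3, 3 of 10 genes of DNA methylation were higher and 0 lower with shKdm5c#1, and 2 and 2 with shKdm5c#2 (medians 0.063 and 0.018). Uhrf1, the maintenance factor that Dppa3 protein is known to bind, was 0.25 higher with shKdm5c#1 and 0.19 higher with shKdm5c#2, lines in which Dppa3 was called in opposite directions. Dnmt3b was 0.29 and 1.02 higher than control, and -0.74 in the control line against IB10. Dnmt3l was 0.56 higher than control with shKdm5c#1 and at 0.12, not called, with shKdm5c#2. Tet2 and Zfp57 were lower than control with shKdm5c#2, at -0.47 and -0.34. With shKdm5c#1 they stood at 0.06 and -0.13, not called.

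**Figure D3:**
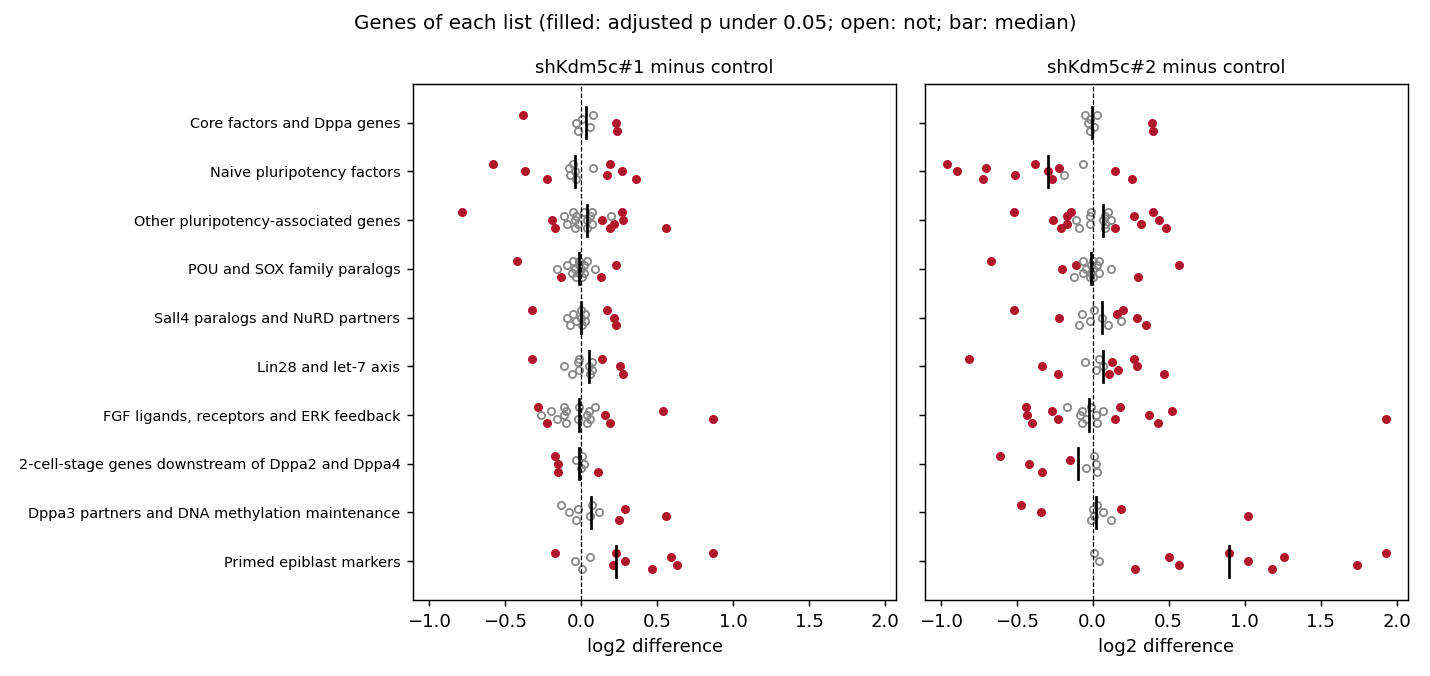
Log2 differences from control (horizontal axis) for each gene of the member set and of 9 lists, filled where the adjusted p was under 0.05, with a bar at the list's median. The member set has medians of 0.034 and -0.0037, while naive factors lie mostly below 0 and primed markers above 0 with shKdm5c#2 (medians -0.29 and 0.90).

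Across the 23 other settings, no called difference of a member changed sign. The Dppa3 difference from control ranged from -0.40 to -0.33 with shKdm5c#1 and from 0.32 to 0.47 with shKdm5c#2. Lin28a ranged from 0.20 to 0.30 and from 0.35 to 0.45, and Fgf4 from 0.18 to 0.28 with shKdm5c#1. Median centring of each array in place of loess ended all 5 calls against control at like values (adjusted p = 0.0525 to 0.376), and against IB10 it left only Dppa3 in the control and shKdm5c#1 lines, while the authors' own normalized values gave the same calls for every member in all 6 comparisons.

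**Figure D4:**
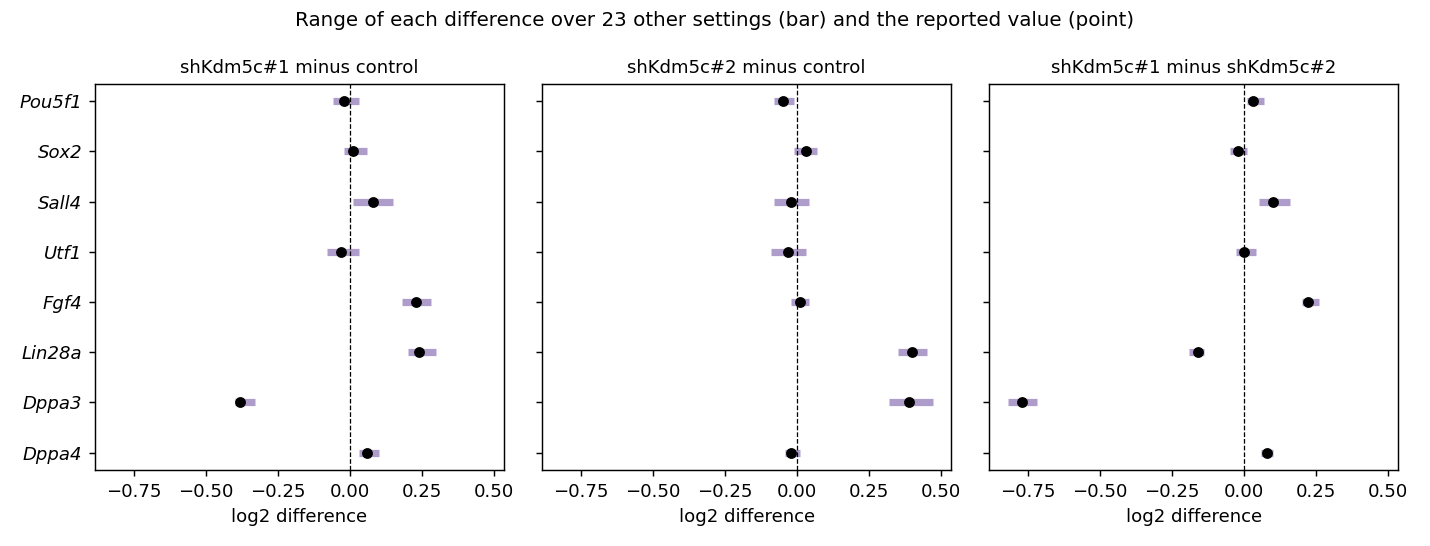
Range of each member's log2 difference (horizontal axis) over 23 other settings of processing, model and arrays as a bar, with the reported value as a point. The bars of Dppa3 and Lin28a in the comparisons with control, and of Fgf4 with shKdm5c#1, stay on 1 side of 0, whereas those of Pou5f1 with shKdm5c#1 and of Sox2 lie across 0.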

How the data were processed

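Dual-dye spotted oligonucleotide arrays measured 12 cultures of 3 lines against IB10 RNA. The deposited raw files hold uncorrected spot and background intensity for each dye, per the file headers. The authors' derived files hold normalized intensity per dye, by a method not given in the sources used here. In the series table, the deposited values are log2 of the authors' Cy5 over Cy3 signal, checked against the derived files on all 12 arrays (largest difference 5e-10), so its scale and direction are known. Its column medians were -0.0026 to 0.016.

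Raw intensity (mean signal, median background) was corrected by normexp with an offset of 50 and normalized by loess within arrays in limma 3.58.1 under R 4.3.3, with control spots at weight 0. Ratios were turned to sample over IB10. The platform table gave 34186 probes 1 symbol, 0 several, and left 6988 without one. The brightest probe stood for each of 18322 genes, with no filter. Symbols of members and lists were matched through RefSeq synonyms. The linear model fitted each line and the dye (8 residual degrees of freedom, 7.64 prior). P-values were adjusted by Benjamini-Hochberg over all genes, threshold 0.05. A spot was above background when its median passed the background median by 2 background SDs. On simulated data of 18322 genes for shKdm5c#1 against control, changes of 0.15, 0.3 and 0.6 log2 were called in 36, 88 and 100 percent of cases. Each size was given to 50 genes, whereas 3419 genes were called in the measured data. The adjustment depends on how many genes change, so these shares need not hold for the measured data. With 1 line per hairpin, p-values reflect the spread among its cultures, which may be technical, so hairpin and line cannot be told apart.

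Members and lists were chosen with earlier results of these data known. Named were the members, Kdm5c, Nanog, at most 3 called genes with the largest difference per list and knockdown comparison, and for the 3 members with the widest line means the 3 most similar genes. Alternatives were no background correction, an offset of 16, median centring, no dye term, each dye alone, a block by culture letter, the mean of probes, no dim genes, the authors' values, array weights and leaving out each culture. Figures used matplotlib 3.10.9 under Python 3.11.15. The number of arrays limits the precision.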

Additional observations from a re-analysis of the deposited data

Results flagged for a closer look

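The 2 knockdown lines differed by the test of the difference itself for 3 members. With 1 line per hairpin, the test compares 2 pools of colonies, so hairpin and line cannot be told apart. Dppa3 was lower with shKdm5c#1 than with shKdm5c#2 by -0.77 log2, Lin28a by -0.16, and Fgf4 was higher by 0.22 (limma adjusted p = 2.06e-09, 0.0109 and 0.000236). All 4 cultures of one line lay on one side of all 4 of the other for each of these genes. The same held for Dppa4, which limma did not call (adjusted p = 0.154). The share of all genes separated in this way was not counted, so the separation adds nothing to the calls. Of 24 sets of 4 cultures (8 genes in 3 lines), 0 held a culture whose gap to the nearest other passed Dixon's critical value at the 95 percent level, where chance gives about 1 in 20. This count covers the ratios as measured, which mix samples in Cy3 and Cy5. After dye correction, Lin28a read -0.31, -0.18, -0.30 and -0.31 in control cultures A to D, with B apart from the others. The count therefore does not show that no culture was outlying.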

How the results depend on the processing

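Of 1104 member values under other settings, 1048 kept their direction and side of the threshold, or were not called in either fit, 51 lost a call, 5 gained one and 0 called values changed sign. With median centring the members called fell from 3 to 0 with shKdm5c#1 against control, from 2 to 0 with shKdm5c#2, from 3 to 1 between hairpins, and against IB10 from 4 to 1 in the control line, 5 to 1 with shKdm5c#1 and 4 to 0 with shKdm5c#2. Limma was the only tool run, and at an unadjusted p under 0.05 the 3 counts of 0 were 3, 2 and 1. With no dye term the control line against IB10 kept 2 calls. In Cy5 alone shKdm5c#1 and shKdm5c#2 each had 1 call against IB10, as had shKdm5c#2 in Cy3 alone. Leaving out 1 culture gave 3 in every case, 2 in every case, 3 to 4, 2 to 4 (2 without control D), 3 to 5 (3 without shKdm5c#1 B or D) and 3 to 5 calls, in the same order of comparisons. Counts over all genes moved by more than 1.5 times from 3419, 4074, 3404, 4816, 4958 and 4810 (in the order above) to 419, 795, 474, 988, 750 and 1204 with median centring, to 1944, 2607, 2007, 3164 and 3195 with no dye term (all but shKdm5c#2 against IB10), to 812, 1298, 741, 2741, 2914 and 2502 in Cy5 alone, and to 1940 and 2256 in Cy3 alone (shKdm5c#1 against control and between hairpins). The cause was not tested. Same-letter deviations of the lines correlated at -0.275 to 0.284, above 0.1 in 4 of 12 pairs. They were below 0 in letters A and C and above 0 in B and D, so whether letters pair the lines is not settled. A replicate block by letter left the members called at 3, 2, 3, 4, 5 and 4. The probes of the members stood above background throughout; whether the ratios of the dimmest, Fgf4, are compressed was not tested. Differences of 0.15 log2 were often missed on simulated data, in which fewer genes changed than were called in the measured data.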
